A study of Homo sapiens with 5 samples.

Results

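The genes described here encode proteases that work at or near the cell surface, together with their inhibitors, and leave out the kallikreins. They comprise matrix metalloproteinases (MMPs), ADAM and ADAMTS metalloproteinases, the plasminogen activators and the urokinase receptor, secreted and membrane serine proteases, dipeptidyl peptidases, serpins, Kunitz-type inhibitors, TIMPs and cystatins. All probe sets that the platform annotation assigned to one of 57 listed genes alone were taken, and each gene was summarised by whichever of its probe sets had the highest 5-array mean. This gave 131 probe sets for 56 of the 57 genes, out of 19775 genes in the series. The expression of the other listed gene, a serpin of clade B, was not analysed here.

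The study asked how the α2 integrin, a collagen receptor, alters gene expression in cells of pancreatic ductal adenocarcinoma (PDAC). It used MIAPaCa2, an established line of poorly differentiated PDAC that lacks α2, and placed 1 Affymetrix array on each of 5 stably transfected populations kept under drug selection. MP2-mock cells carried the vector alone. MP2-α2/TC cells and MP2-α2/CI cells carried full-length α2 driven by a viral promoter, came from the same panning on collagenI under zeocin, and were then kept in standard tissue culture and on collagenI, respectively. MP2-α2Δ cells carried α2 lacking its cytoplasmic domain and were kept under zeocin on collagenI, which was coated at 25 μg/mL for panning. MP2-α9α2 cells carried the ectodomain and transmembrane domain of α9 on the α2 cytoplasmic domain, and were kept under G418 on a tenascin FNIII fragment coated at 10 μg/mL. The 4 integrin populations were selected as pools by adhesion to their substrate and are not single clones, and no such panning is described for MP2-mock. Between MP2-α2Δ and MP2-α9α2, construct, substrate and drug differed together and cannot be told apart.

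As background, invasive cells cut the matrix around them with enzymes made as inactive precursors. Urokinase (PLAU), held at the surface by its receptor PLAUR, and tissue plasminogen activator (PLAT) turn plasminogen into plasmin, which can in turn activate secreted MMPs. ADAM sheddases release ligands and receptors from the membrane, and TIMPs, serpins, Kunitz-type inhibitors and cystatins hold the metallo-, serine and cysteine proteases in check. What the arrays measure is the RNA for these proteins and not their activation or activity.

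Values are log2 expression values as the authors deposited them, and the log base was inferred from their range. The array of MP2-mock and those of MP2-α2/TC and MP2-α2/CI had a common minimum of 2.24, those of MP2-α2Δ and MP2-α9α2 one of 2.21. Median values over 27320 probe sets above background everywhere were 6.88 to 6.89 on the first 3 arrays and 7.69 to 7.72 on the other two. The arrays were therefore treated as normalized in separate sets, and differences were taken first within each set. Odorant receptor genes are not expected to be read here, and the 95th percentile of their 107 probe sets, 2.21 to 2.27 depending on the array, was taken as background and is called the floor. With 1 array per population no difference has an error or a test, and the number of arrays limits the precision. Keratin genes KRT8, KRT18 and KRT19 read 11.74 to 15.22. Of the mesenchymal-like markers, VIM read 15.48 to 15.85 and ZEB1 10.12 to 11.09, while CDH2 read no more than 2.31. EPCAM and CDH1 read no more than 2.26, so 3 of 5 epithelial markers were present. Blood and endothelial markers did not exceed 4, acinar markers lay at the floor, and of 7 fibroblast markers only COL1A1 and COL1A2 exceeded 4. ITGA2, the gene of α2, read 7.28 and 3.28 by its probe sets in MP2-α2Δ and lay at the floor on the other 4 arrays, both α2 arrays included. By the study's account the transfected construct does not hold the 3′-UTR that these probes target, so ITGA2 does not check the labels. The same account states that the arrays found α2 in none of the cells, whereas the values here show ITGA2 signal in MP2-α2Δ. The source of the signal in MP2-α2Δ cells was not tested.

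The share of these genes present in the cells, proteases and inhibitors together, was close to that of all genes and somewhat below it. Of the 56 genes, 37 exceeded the floor on at least 1 array, 32 on all 5 and 19 on none. At a stricter level of 4, 26 genes (46.4%) were present on at least 1 array, against 53.5% of all 19775 genes, and 20 on all 5. Fewer cells with a transcript and less transcript per cell cannot be told apart in these RNA pools.

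Among the 10 secreted MMPs, the gelatinase gene MMP2, the stromelysin genes MMP3 and MMP10, the matrilysin gene MMP7 and the collagenase gene MMP13 lay at the floor everywhere. MMP1, interstitial collagenase, reached no more than 2.24. MMP9, the other gelatinase, read 3.20 on all 3 arrays of the first set and 2.32 on both of the second. MMP11, stromelysin-3, was the secreted MMP with the highest mean and read 6.36 in MP2-mock cells, 6.36 in MP2-α2/TC cells, 6.34 in MP2-α2/CI cells, 7.27 in MP2-α2Δ cells and 7.83 in MP2-α9α2 cells. MMP28, or epilysin, read 4.18 to 5.02, by a probe set that can read several transcripts. MMP19 read 4.07 in MP2-mock cells, 3.71 on both α2 arrays and 2.43 on both arrays of the second set.

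At the level of 4, 2 of the 5 membrane-type MMPs were present on at least 1 array, against 53.5% of all genes. All 5 exceeded the floor on at least 1 array. MMP14 (MT1-MMP), an activator of pro-MMP2, read 2.31 to 2.36, and MMP16 and MMP17 no more than 2.30. MMP15 (MT2-MMP) read 6.31 in MP2-mock cells, 6.31 in MP2-α2/TC cells, 6.21 in MP2-α2/CI cells, 5.98 in MP2-α2Δ cells and 6.04 in MP2-α9α2 cells. MMP24 (MT5-MMP) read 2.44 to 2.56 in the first set and 4.23 on both arrays of the second.

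Of the 8 sheddases, 5 exceeded 4 on at least 1 array, against 53.5% of all genes, and 7 exceeded the floor. ADAM10, which cleaves Notch and cadherins, read 11.91, 11.94 and 12.01 in cells of MP2-mock, of MP2-α2/TC and of MP2-α2/CI, and 13.61 and 14.47 in MP2-α2Δ and MP2-α9α2 cells. ADAM9 read 11.54 to 11.91 in the first set, and 13.66 and 13.86 in the second. ADAM17, the TNFα-converting enzyme, read 9.71 to 10.59, and ADAM15 7.79 to 8.32. ADAM8 read 3.52 to 3.59 in the first set and 6.41 on both arrays of the second. ADAM12 lay at the floor, ADAM19 and ADAM28 read no more than 2.29, and the 4 ADAMTS genes, ADAMTS1, ADAMTS5, ADAMTS6 and ADAMTS9, lay at the floor on all 5 arrays.

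In the serine protease system, PLAU and PLAUR were present on all arrays and PLAT on that of MP2-α2Δ cells alone. PLAUR read 9.129, 8.998 and 9.250 in cells of MP2-mock, of MP2-α2/TC and of MP2-α2/CI, and 8.004 and 7.512 in MP2-α2Δ and MP2-α9α2 cells. ST14 (matriptase), an epithelial membrane protease, read 4.09 in the first set and 3.47 in the second, and HPN (hepsin) 2.65 to 2.66. PRSS8 (prostasin), PRSS3 (mesotrypsin), TMPRSS2 and TMPRSS4 lay at the floor, as did the dipeptidyl peptidase genes FAP and DPP4.

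Inhibitors of several classes were present throughout. TIMP1 read 14.85, 14.85 and 14.83 in cells of MP2-mock, of MP2-α2/TC and of MP2-α2/CI, and 14.02 and 13.71 in MP2-α2Δ and MP2-α9α2 cells. TIMP3, which binds the matrix, and TIMP4 read no more than 2.35. CSTB, an intracellular cystatin, read 13.44, 13.37 and 13.35 in cells of MP2-mock, of MP2-α2/TC and of MP2-α2/CI, and 13.07 and 12.34 in MP2-α2Δ and MP2-α9α2 cells. CST3, the secreted cystatin C, read 12.21 to 12.31 in the first set, and 10.03 and 9.49 in the second. SERPINH1, a collagen chaperone that inhibits no protease, read 11.50 in MP2-mock cells, 11.43 in MP2-α2/TC cells, 11.43 in MP2-α2/CI cells, 12.11 in MP2-α2Δ cells and 11.81 in MP2-α9α2 cells. SERPINB8, an inhibitor of furin, read 9.12 to 9.84, and SERPINI1 (neuroserpin), an inhibitor of PLAT, 4.41 to 5.51. SERPINE2 and SERPINB5 (maspin) lay at the floor. SPINT1, which inhibits matriptase as SPINT2 does, read 2.22 to 2.61, and SLPI, an inhibitor of leukocyte elastase, read 2.86 in the first set and 2.21 in the second.

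**Figure D1:**
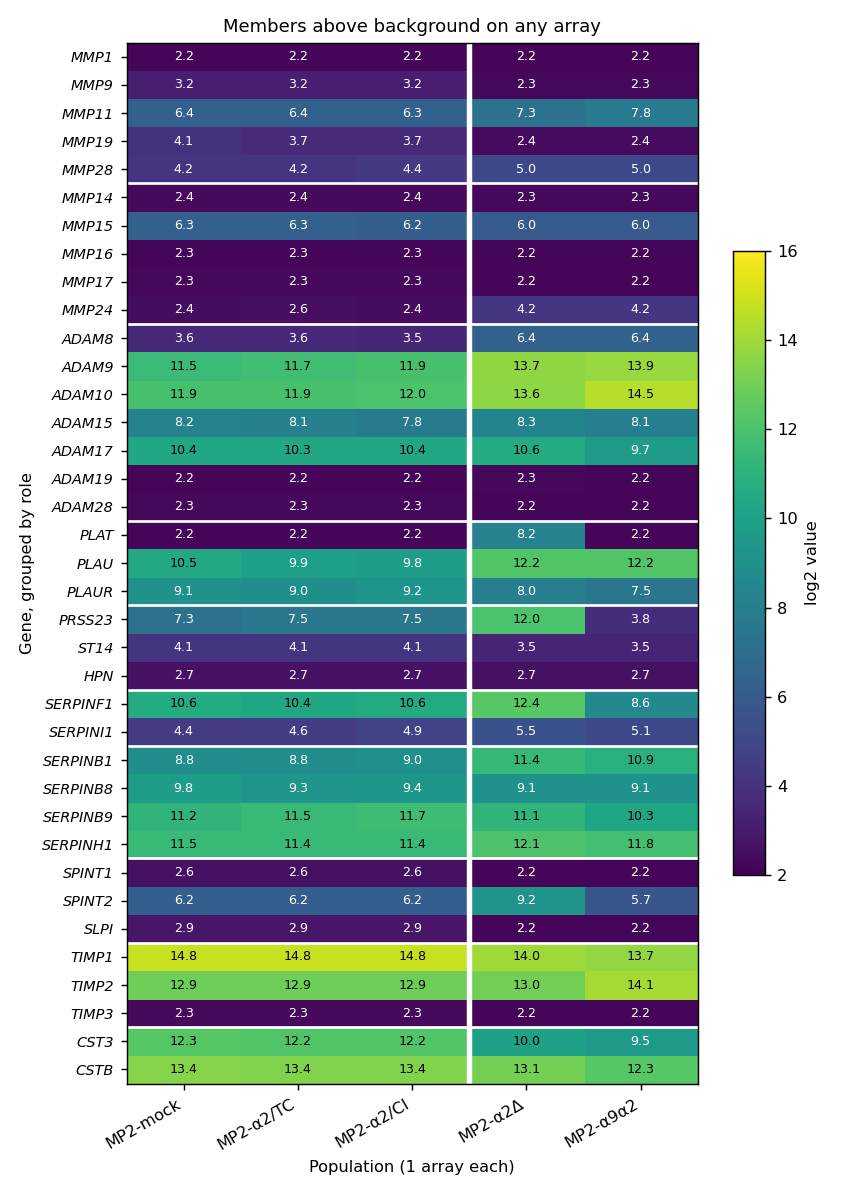
Log2 values (colour, and printed in each cell) of the 37 genes above the floor on at least 1 array (rows, grouped by role with white lines between roles), in each population (columns, 1 array each). The thick white line separates the arrays treated as normalized apart. PLAT reads 8.18 in MP2-α2Δ cells and lies at the floor elsewhere, while TIMP1 reads 13.71 to 14.85.

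The first comparison asked whether full-length α2 changed these genes, without or with continued contact with collagenI. None of the 34 genes above the floor on either array was 2-fold apart between MP2-α2/TC and MP2-mock cells, and none of 33 between cells of MP2-α2/CI and of MP2-mock. Over all genes tested in the same way, 0.292% reached 2-fold upwards and 0.378% downwards in MP2-α2/TC, and 0.262% and 0.389% in MP2-α2/CI cells, so that a count of 0 among so few genes is close to that background. Differences ranged from -0.57 (SERPINB8) to 0.35 (SERPINB9) in MP2-α2/TC and from -0.64 (PLAU) to 0.49 (SERPINB9) in MP2-α2/CI cells, with a median of 0 in both. The median over all genes was 0 as well. SERPINB9, an inhibitor of granzyme B, read 11.16, 11.51 and 11.65 in cells of MP2-mock, of MP2-α2/TC and of MP2-α2/CI. Its other probe set above the floor in these cells read 7.21 to 7.24. Of the 58 probe sets of these genes above the floor in the first set, 19 had the same value on all 3 arrays within 1e-06.

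PLAU came nearest to a 2-fold difference. By the probe set that stands for the gene it read 10.46 in MP2-mock cells, 9.92 in MP2-α2/TC cells and 9.82 in MP2-α2/CI cells, differences of -0.54 and -0.64. By its other probe set it read 10.43, 9.71 and 9.36, differences of -0.72 and -1.07. Both probe sets thus read highest in MP2-mock and lowest in MP2-α2/CI cells, and one of them passed 2-fold on collagenI. The comparisons share the MP2-mock array, and both PLAU probe sets belong to the _s_at class, whose probes may match more than 1 transcript. Against MP2-mock, PLAUR differed by -0.13 without and 0.12 with collagenI, and PLAT lay at the floor on all 3 arrays.

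The step from plastic to collagenI within the α2 cells left all 34 genes tested under 2-fold. Differences of MP2-α2/CI from MP2-α2/TC ranged from -0.31 (ADAM15) to 0.29 (SERPINI1), and 26 of the genes (76.5%) lay within 1.1-fold, against 84.1% of all genes. Over all genes, 0.0395% reached 2-fold upwards and 0.15% downwards. TIMP1 differed by -0.02 and MMP11 by -0.01.

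MP2-α2Δ cells were then set against MP2-α9α2 cells. Construct, substrate and drug differed together between them, so a difference cannot be assigned to a domain of α2. Here PRSS23, PLAT, SERPINF1 and SPINT2 were at least 2-fold higher in MP2-α2Δ cells and TIMP2 was lower, among 35 genes above the floor on either array. These are 11.4% higher and 2.86% lower, against 10.1% and 4.97% of all genes, so the number of genes apart is near the background. The median of the 35 was 0, as over all genes. Of the 59 probe sets above the floor in this set, 21 had the same value on both arrays.

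PRSS23, a secreted serine protease of the trypsin fold, read 7.29 in MP2-mock cells, 7.54 in MP2-α2/TC cells, 7.54 in MP2-α2/CI cells, 12.01 in MP2-α2Δ cells and 3.84 in MP2-α9α2 cells. The array of MP2-α2Δ stood 8.17 above that of MP2-α9α2, a 289-fold difference. A further probe set read 10.36 against the floor, a difference of at least 8.15, and another 6.93 against the floor, at least 4.72. All 3 of its probe sets above the floor gave the same direction, and the other exceeded the floor on no array. Those reading 10.36 and 6.93 were above the floor in MP2-α2Δ but not MP2-α9α2 cells, so here they could only differ upwards. The direction therefore rests on the main probe set, which was above the floor on both arrays. By the main probe set, MP2-mock and both α2 arrays lay between MP2-α2Δ and MP2-α9α2 cells.

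PLAT read 8.18 in MP2-α2Δ cells and lay at the floor on the other 4 arrays. The difference from MP2-α9α2 was at least 5.97, or at least 62.9-fold, and it rests on the only probe set of the gene, whose ID ends in _s_at. Since PLAT passed the filter through MP2-α2Δ cells alone, it could only differ upwards there. The other plasminogen activator gene, PLAU, read 12.21 on both arrays by one probe set, and 11.89 in MP2-α2Δ cells and 11.70 in MP2-α9α2 cells by the other. PLAUR was 0.49 higher in MP2-α2Δ cells.

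SERPINF1 encodes pigment epithelium-derived factor, a secreted serpin that inhibits no protease and is known for restraining blood vessel growth. It read 10.59 in MP2-mock cells, 10.40 in MP2-α2/TC cells, 10.58 in MP2-α2/CI cells, 12.35 in MP2-α2Δ cells and 8.57 in MP2-α9α2 cells, 13.7-fold (3.78) apart between the last 2 arrays. SPINT2, a Kunitz-type membrane inhibitor of hepsin, matriptase and the activator of hepatocyte growth factor, read 6.17 on each of the first 3 arrays, 9.24 in MP2-α2Δ cells and 5.75 in MP2-α9α2 cells. MP2-α2Δ was thus 11.3-fold higher than MP2-α9α2, and the 3 arrays of the first set read the same. Each of these genes has 1 probe set, that of SPINT2 with an ID ending in _s_at.

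TIMP2, which inhibits MMPs and takes part in MMP2 activation by MMP14, read 12.92, 12.92 and 12.93 in cells of MP2-mock, of MP2-α2/TC and of MP2-α2/CI, and 13.02 and 14.13 in MP2-α2Δ and MP2-α9α2 cells. This is a difference of -1.11 between MP2-α2Δ and MP2-α9α2. A further probe set gave -1.23, at 12.58 against 13.82, but the remaining one gave 0.53, at 9.15 against 8.62, so the direction for TIMP2 depends on the probe set. ADAM10 differed by -0.86 by its main probe set and by -1.19 and -1.31 by the others, all lower in MP2-α2Δ cells. SERPINB9 differed by 0.84, 0.02 and 1.90 by its 3 probe sets, the last at 4.14 against 2.24. ADAM17 differed by 0.88 by its main probe set but by -0.42 and 0 by the others, and CSTB by 0.73 but by -0.33 by its other one, so neither has a direction shared by its probe sets. None of the MMP genes differed by more than the -0.56 of MMP11.

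**Figure D2:**
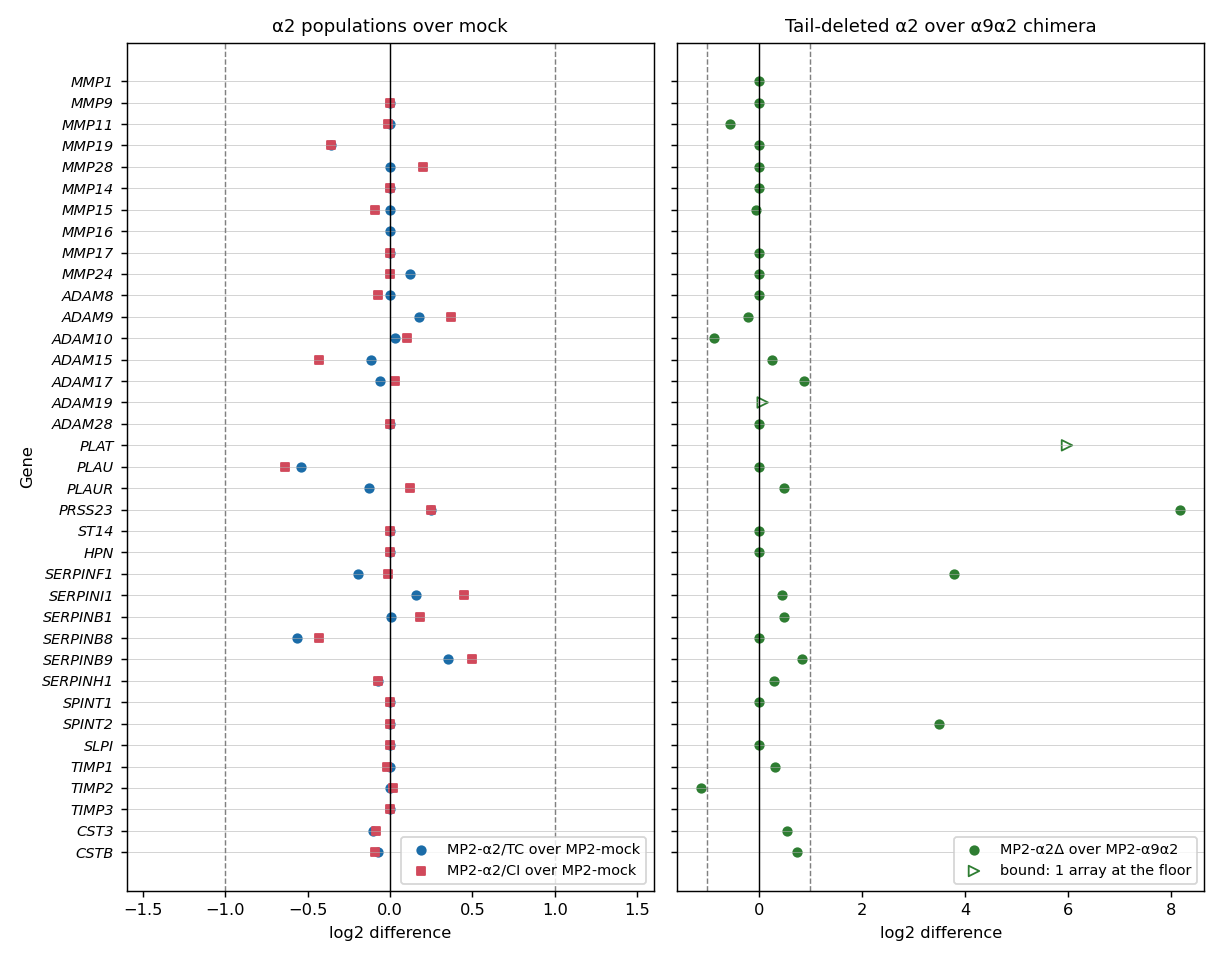
Log2 differences (x axis) of the 37 genes above the floor on at least 1 array (y axis), 1 probe set per gene, for MP2-α2/TC and MP2-α2/CI over MP2-mock (left) and MP2-α2Δ over MP2-α9α2 (right). Dashed lines mark 2-fold, the open triangles are bounds against an array at the floor, and the x scales of the panels differ. On the left all points lie between -0.64 and 0.49, and on the right PRSS23 lies at 8.17.

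**Figure D3:**
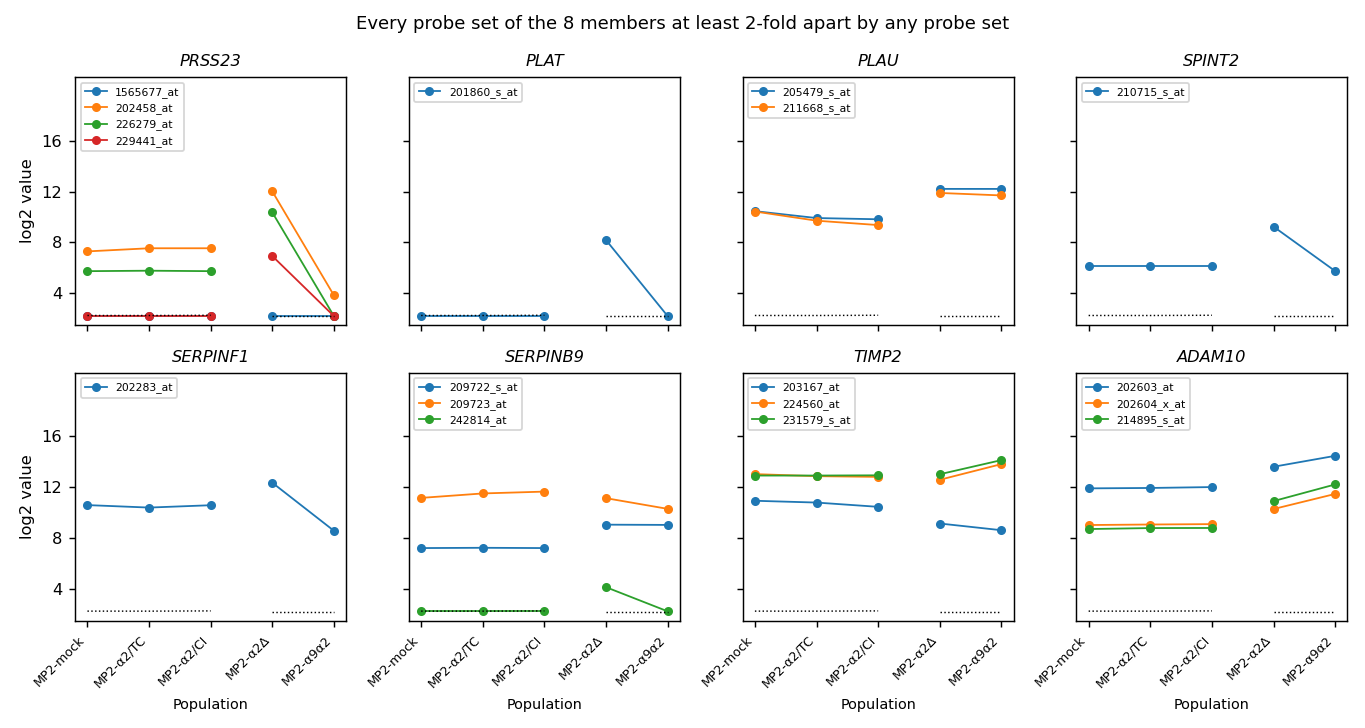
Log2 values (y axis) of every probe set of the 8 genes with a probe set at least 2-fold apart within a set of arrays, in each population (x axis, 1 array each). Lines join arrays of 1 set, and the dotted line is the floor. The 3 PRSS23 probe sets above the floor all read lower in MP2-α9α2 than in MP2-α2Δ cells, and the TIMP2 probe sets cross.

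Sequences are given for PRSS23, the gene that differed most within the second set, and for PLAU, the gene nearest to 2-fold on the α2 arrays. From a table of promoter windows on assembly GRCh38.p14, the 250 bases before each start listed there are shown, 5′ to 3′. They show what kind of promoter each listed start has. The RefSeq record of PLAU begins further upstream, at position 73908832 of chromosome 10, and no window was listed for that position. Which start these cells use was not measured. Capitals mark the GC box GGGCGG, searched on both strands, with overlapping matches joined.

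PRSS23, chr11:86800292-86800541, plus strand: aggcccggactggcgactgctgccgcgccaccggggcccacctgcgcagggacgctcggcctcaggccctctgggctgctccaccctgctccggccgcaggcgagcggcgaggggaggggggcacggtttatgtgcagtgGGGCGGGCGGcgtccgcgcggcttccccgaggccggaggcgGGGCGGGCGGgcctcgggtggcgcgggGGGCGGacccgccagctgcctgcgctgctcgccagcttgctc
PRSS23, chr11:86790821-86791070, plus strand: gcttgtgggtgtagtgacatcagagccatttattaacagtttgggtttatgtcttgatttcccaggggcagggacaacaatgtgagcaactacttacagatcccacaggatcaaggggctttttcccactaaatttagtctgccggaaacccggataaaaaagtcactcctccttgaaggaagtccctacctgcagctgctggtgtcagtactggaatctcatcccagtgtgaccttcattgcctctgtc
PLAU, chr10:73910882-73911131, plus strand: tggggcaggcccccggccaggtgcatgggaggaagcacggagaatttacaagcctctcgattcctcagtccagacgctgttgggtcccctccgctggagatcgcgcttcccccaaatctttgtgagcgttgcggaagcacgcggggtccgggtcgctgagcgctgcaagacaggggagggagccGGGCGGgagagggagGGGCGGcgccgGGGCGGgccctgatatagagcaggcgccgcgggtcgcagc
PLAU, chr10:73910360-73910609, plus strand: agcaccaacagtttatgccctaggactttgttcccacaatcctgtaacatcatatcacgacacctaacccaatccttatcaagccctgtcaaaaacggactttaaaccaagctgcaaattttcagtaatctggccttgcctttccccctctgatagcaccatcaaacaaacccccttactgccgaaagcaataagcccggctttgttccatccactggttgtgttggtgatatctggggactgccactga

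Among the windows shown, each gene has a GC-rich one and an AT-richer one. The first PRSS23 window shown has 79.6% G and C, 32 CpG and 5 GC boxes, and the other 47.6%, 2 and 0. For PLAU the values were 68.8%, 24 CpG and 3 GC boxes, and 46.8%, 4 and 0. Over all 35116 windows of this length in the table, 42.6% held a GC box, with medians of 11 CpG and 58% G and C. Of 40 windows for 32 of the listed genes, 27 held one (67.5%). Those windows include some of the clade B serpin whose expression was not analysed, and some windows of the same gene overlap. The AP-1 motif TGANTCA and the TATA box TATAAA, also searched on both strands, were found in none of the 4 windows shown, and in 6.57% and 10.7% of all windows, which says only that these letters are not in these windows.

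Levels of MP2-α2Δ and MP2-α9α2 against MP2-mock were set across arrays normalized separately, so that construct and normalization set cannot be told apart. A gene was counted there only where it was at least 2-fold apart in the same direction as deposited, after centring the arrays on their medians, and after quantile normalization. For MP2-α2Δ, 6 of 36 genes were higher (16.7%, against 11.3% of all genes) and 3 lower (8.33%, against 6.91%). For MP2-α9α2, 4 of 34 were higher (11.8%, against 14.7%) and 7 lower (20.6%, against 11%). The median difference as deposited was 0.01 for MP2-α2Δ and -0.15 for MP2-α9α2, where that of all genes was 0.37 and 0.33. With each scaling alone, the counts higher and lower were 11 and 3 as deposited, 6 and 11 centred, and 10 and 8 quantile normalized for MP2-α2Δ. They were 8 and 7, 4 and 16, and 6 and 14 for MP2-α9α2. Centring took 0.84 from every difference of MP2-α2Δ and 0.81 from every difference of MP2-α9α2. Shares of all genes were not computed for each scaling alone. These counts therefore show only how far the scaling moves them, and nothing particular to these genes.

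PRSS23 differed from MP2-mock in opposite directions, by 4.72 in MP2-α2Δ cells and -3.46 in MP2-α9α2 cells as deposited, and by 3.88 and -4.26 after centring. SPINT2 was 3.07 higher in MP2-α2Δ cells (2.23 after centring), and PLAT at least 5.93 higher as deposited, 5.09 after centring and 5.44 after quantile normalization. SERPINF1 was lower in MP2-α9α2 cells by -2.02 as deposited and -2.82 after centring.

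Other genes read alike on both arrays of the second set. ADAM8 was 2.81 higher than in MP2-mock on both (1.97 and 2.01 after centring), and SERPINB1, an inhibitor of neutrophil proteases, 2.55 and 2.06 higher. The probe sets used for ADAM8 and MMP19 each had the same value on both arrays of the second set within 1e-06. Whether these are separate readings was not tested. That of ADAM8 has an ID ending in _s_at. The other ADAM8 probe set lay at the floor on every array, so the count of ADAM8 depends on the probe set. ADAM9 was 2.13 higher in MP2-α2Δ cells and 2.33 in MP2-α9α2 cells by its main probe set, but only 0.08 and 0.94 by a further one that read 10.85 to 11.86, so its count depends on the probe set. ADAM10 was counted as higher for MP2-α9α2 alone, by 2.56. In MP2-α2Δ cells it was 1.70 higher as deposited and 1.28 after quantile normalization, but 0.86 after centring, and so missed the count. On the lower side, CST3 differed by -2.28 and -2.82 by its main probe set, while its other probe sets, at 2.88 to 4.55, differed by no more than 0.04 in size. MMP19 differed by -1.64 on both arrays, and PLAUR by -1.12 and -1.62. With the median over the probe sets of each gene, none of these 3 was counted as lower for MP2-α2Δ. TIMP1 and CSTB were counted as lower for MP2-α9α2 alone, by -1.14 and -1.10. The other CSTB probe set was, however, 2.02 higher there, at 6.91 against 4.88. As deposited, centred and quantile normalized, TIMP1 differed in MP2-α2Δ cells by -0.83, -1.67 and -1.06. For CSTB the values there were -0.37, -1.21 and -0.82. PLAU was 1.75 higher on both arrays as deposited and 0.91 and 0.94 after centring, and was not counted. Both sets of differences share the MP2-mock array.

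**Figure D4:**
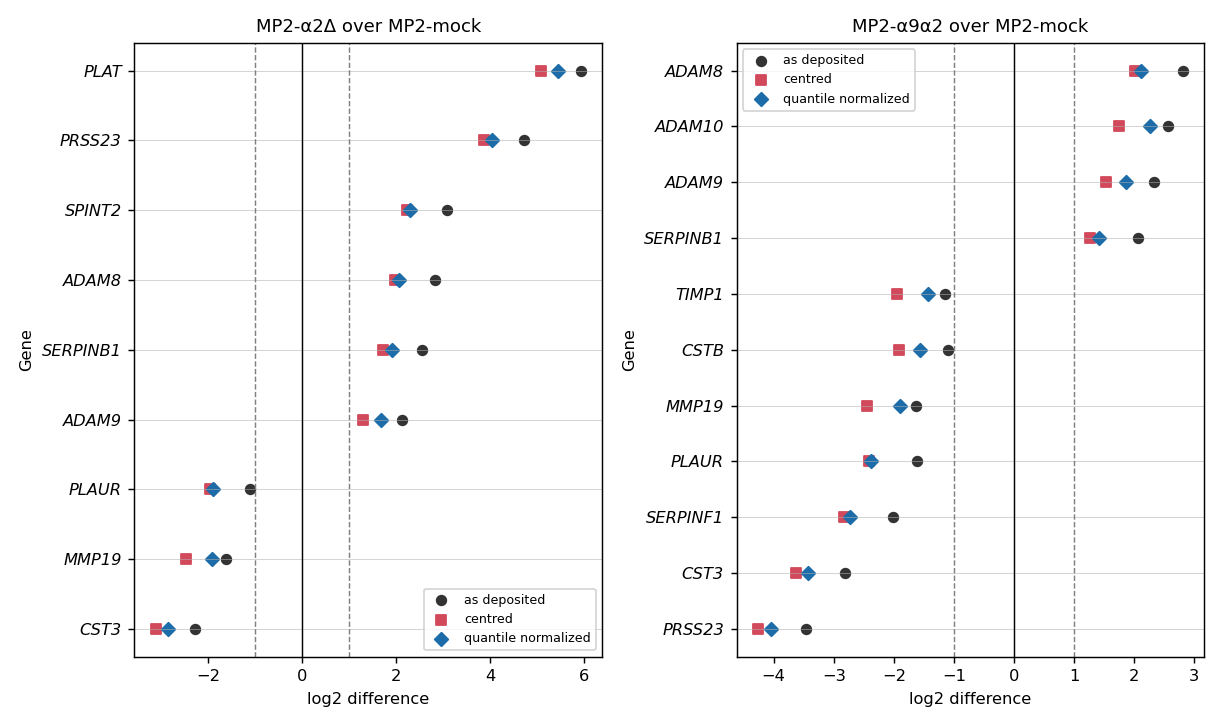
Log2 difference from MP2-mock (x axis) of each gene counted as at least 2-fold apart under all 3 scalings (y axis), for MP2-α2Δ (left) and MP2-α9α2 (right), with 1 point per scaling. Dashed lines mark 2-fold and the x scales differ. PRSS23 lies above 3 on the left and below -3 on the right.

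Further genes of the same system, from 5 lists, were read in the same way. Of the 10 listed activators and cofactors of the zymogens, 8 were above the floor in MP2-α2Δ or MP2-α9α2 cells, of which 2 were at least 2-fold higher in MP2-α2Δ and none lower. Over the 5 lists it was 3 higher and 3 lower of 49, where 10.1% and 4.97% of all genes were higher and lower. The 2 activators and cofactors were S100A10, which with annexin A2 binds plasminogen at the surface, at 14.33 against 12.62, and PLGRKT, a plasminogen receptor, at 9.62 against 8.44. S100A10 read 13.51 to 13.58 on the first 3 arrays. Among receptors and substrates, 9 of the 15 genes with a probe set were tested, and HBEGF, an EGF receptor ligand that is shed by ADAMs, was lower in MP2-α2Δ cells (6.77 against 8.12). F2R, the thrombin receptor PAR1, was the only gene of the 5 lists at least 2-fold apart from MP2-mock on an α2 array. It was 1 of 49 genes tested in MP2-α2/TC and 1 of 47 in MP2-α2/CI cells. Over all genes, 0.292% and 0.262% were at least 2-fold higher there. F2R read 6.93 in MP2-mock cells, 8.46 in MP2-α2/TC cells and 8.62 in MP2-α2/CI cells, by a probe set with an ID ending in _x_at.

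The other MMP, ADAM and ADAMTS genes had 10 of 27 above the floor in the second set, of which ADAM22, which has no protease activity, was lower in MP2-α2Δ cells by -1.16. Of the other serine proteases and peptidases, 13 of 23 were tested and HTRA2, a mitochondrial protease, was 1.09 higher. Of the other inhibitors, 9 of 30 were tested and TFPI, the tissue factor pathway inhibitor, differed by -1.51, at 11.998 against 13.512. In all 5 lists no gene of 49 tested was at least 2-fold apart between the α2 arrays on collagenI and on plastic. Over all genes, 0.0395% were higher and 0.15% lower on collagenI.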

How the data were processed

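Expression was measured on 5 Affymetrix arrays, 1 per population of MIAPaCa2 cells. The values that the authors deposited are normalized and were read here as log2, 1 for each probe set on each array. GCRMA and MAS5 are named in the submitters' processing notes, with no role. The log base and which arrays were normalized together are not given in the sources used here, and were inferred from the range and the minimum of each array. Of 54675 probe sets, 62 controls were left out, and 41091 carried a single gene symbol, of which 41037 were updated by gene identifier through a RefSeq table (GRCh38.p14). Values below the floor of an array were raised to it, and genes above it on either array were compared at 2-fold, with no test. The calculation of differences was checked by adding known differences, without noise, to genes well above the floor, which checks the arithmetic alone. Python 3.11.15, pandas 2.3.3 and numpy 2.4.6 were used. The genes, their roles and the 5 lists were chosen with earlier results of these data known. Full values are given for each gene with a probe set at least 2-fold apart within a set of arrays and for that with the highest mean in each role, and the rest by range. Alternatives were other floors, folds, scalings and probe sets per gene.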

Additional observations from a re-analysis of the deposited data

How the results depend on the processing

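No paired analysis was possible because each population has 1 array, so no replicate could be left out either. For MP2-α2/TC over MP2-mock and MP2-α2/CI over MP2-α2/TC the count of genes apart was 0 under every alternative run, and for MP2-α2/CI over MP2-mock it was 1 (PLAU) at 1.5-fold and 0 under the others. For MP2-α2Δ over MP2-α9α2 the count of 5 was 9 at 1.5-fold and 3 without probe sets ending in _x_at or _s_at, where PLAT and SPINT2 have none left. It was 4, without TIMP2, when every probe set of a gene had to agree, an alternative added after seeing the data. Against MP2-mock, the count of 9 for MP2-α2Δ was 18 at 1.5-fold, 5 with the median over probe sets (all higher), 5 without _x_at and _s_at probe sets, and 14, 17 and 18 as deposited, centred and quantile normalized alone. The count of 11 for MP2-α9α2 was 20 at 1.5-fold, 7 at 3-fold, and 20 centred or quantile normalized alone. These alternatives counted the listed genes alone, with no share of all genes at the same setting. They show how far each count moves, and not whether it departs from the background. Among single genes, the probe sets of TIMP2 differ in direction for MP2-α2Δ over MP2-α9α2, as given above. Under the alternatives run, the difference of ADAM10 passed 2-fold with the median over probe sets (-1.31). No difference of 2-fold or more within a set changed direction under them. Smaller ones did, by another probe set rule for TIMP2 (0.02 to between -0.22 and -0.06 for MP2-α2/CI over MP2-mock or MP2-α2/TC) and for SERPINB9 (0.14 to -0.02 for MP2-α2/CI over MP2-α2/TC), and on quantile normalization for PLAU (0.0026 to -0.0094 for MP2-α2Δ over MP2-α9α2). Differences close to the floor are compressed, so that low genes may differ by more than is shown.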
